A study of Rattus norvegicus with 6 samples.

Results

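The collagens, the elastic fibre genes elastin and fibrillin-1, fibronectin and 3 lysyl oxidases were followed in rat cerebral arteries 6 hours after subarachnoid haemorrhage (SAH) (bleeding over the surface of the brain). The genes were chosen by name: every gene symbol of the form Col, number, a, number, with Eln, Fn1, Fbn1, Fbln5, Lox, Loxl1 and Loxl2. Only probe sets annotated to a single gene were used, and a gene with several was read from the one with the highest mean over all 6 arrays. This gave 42 genes, 36 of them collagens, out of 18166 genes named in the table. Fbln5 was not analysed here, since both of its probe sets also name another gene. The RefSeq gene table of the GRCr8 assembly holds 44 collagen symbols, and 8 of them (Col4a6, Col6a1, Col6a4, Col6a5, Col9a3, Col22a1, Col25a1 and Col28a1) had no probe set usable here.

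Arteries of male rats subjected to SAH and taken after 6 hours (arrays 1, 4 and 5) were compared with arteries of male sham-operated rats (arrays 6, 7 and 8), for which the labels give no time. All values are log2 expression values from Affymetrix arrays, made with RMA, which removes background, brings the arrays to a common distribution and combines a probe set's probes into 1 value. The labels give no strain, age or method of inducing the bleed, and do not state whether each array is a separate animal. The spread that the p-values rest on is that between these samples, which may be technical. Differences are given as SAH minus sham with the standard error (SE) of limma, and a gene was called when its Benjamini-Hochberg adjusted p over all 36495 probe sets was under 0.05.

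Collagens are trimers of alpha chains wound into a triple helix, and they fall into classes by the structures they build. Fibrillar collagens carry the tensile load of the artery's outer layers, type IV collagen forms the sheet of the basement membrane, type VI forms beaded filaments, and the FACIT collagens bind to the surface of fibrils. Elastin and fibrillin-1 make the elastic lamina that lets the artery recoil, fibronectin is a cell-binding scaffold, and lysyl oxidases cross-link collagen and elastin. In cerebral arteries this matrix is made mainly by smooth muscle cells and fibroblasts of the adventitia, with endothelial cells adding to the basement membrane.

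Of the 42 genes, 1 fell after SAH, none rose and 41 did not pass the threshold. The gene that fell was Col6a6, the alpha 6 chain of type VI collagen. Among all named genes 0.330% fell and 0.963% rose by the same limma test, against 2.38% and none of the 42. The median difference over the 42 genes was -0.08, against -0.01 over all named genes, and 28 of the 42 differences (66.7%) were below 0, against 52.7% of all named genes. At an unadjusted p under 0.05 the test counted 9 of the 42 genes (21.4%), 6 lower and 3 higher after SAH, where the same count over all named genes was 18.6% (10.5% lower, 8.16% higher). SAH and sham values did not overlap for 12 genes (28.6%), 9 lower and 3 higher, against 26.8% of all named genes (15.4% lower, 11.4% higher). Counted in both directions together, these shares were close to those of the table as a whole. By direction, 21.4% of the 42 were lower without overlap and 7.14% higher.

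For the other 41 genes the intervals bound the difference in array values between these samples. The limma 95% interval of the difference, not adjusted for the number of genes, lay inside 2-fold in either direction for each of these 41, against 91.9% of all named genes. SE of the 42 differences ran from 0.09 for Fn1 to 0.19 for Eln and Loxl2, with a median of 0.11. In all, 33 of the genes lay above their array's median on all 6 arrays, and 5 (Col9a1, Col10a1, Col17a1, Col19a1 and Col26a1) lay below it on all 6. RMA understates differences of genes near background.

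**Figure D1:**
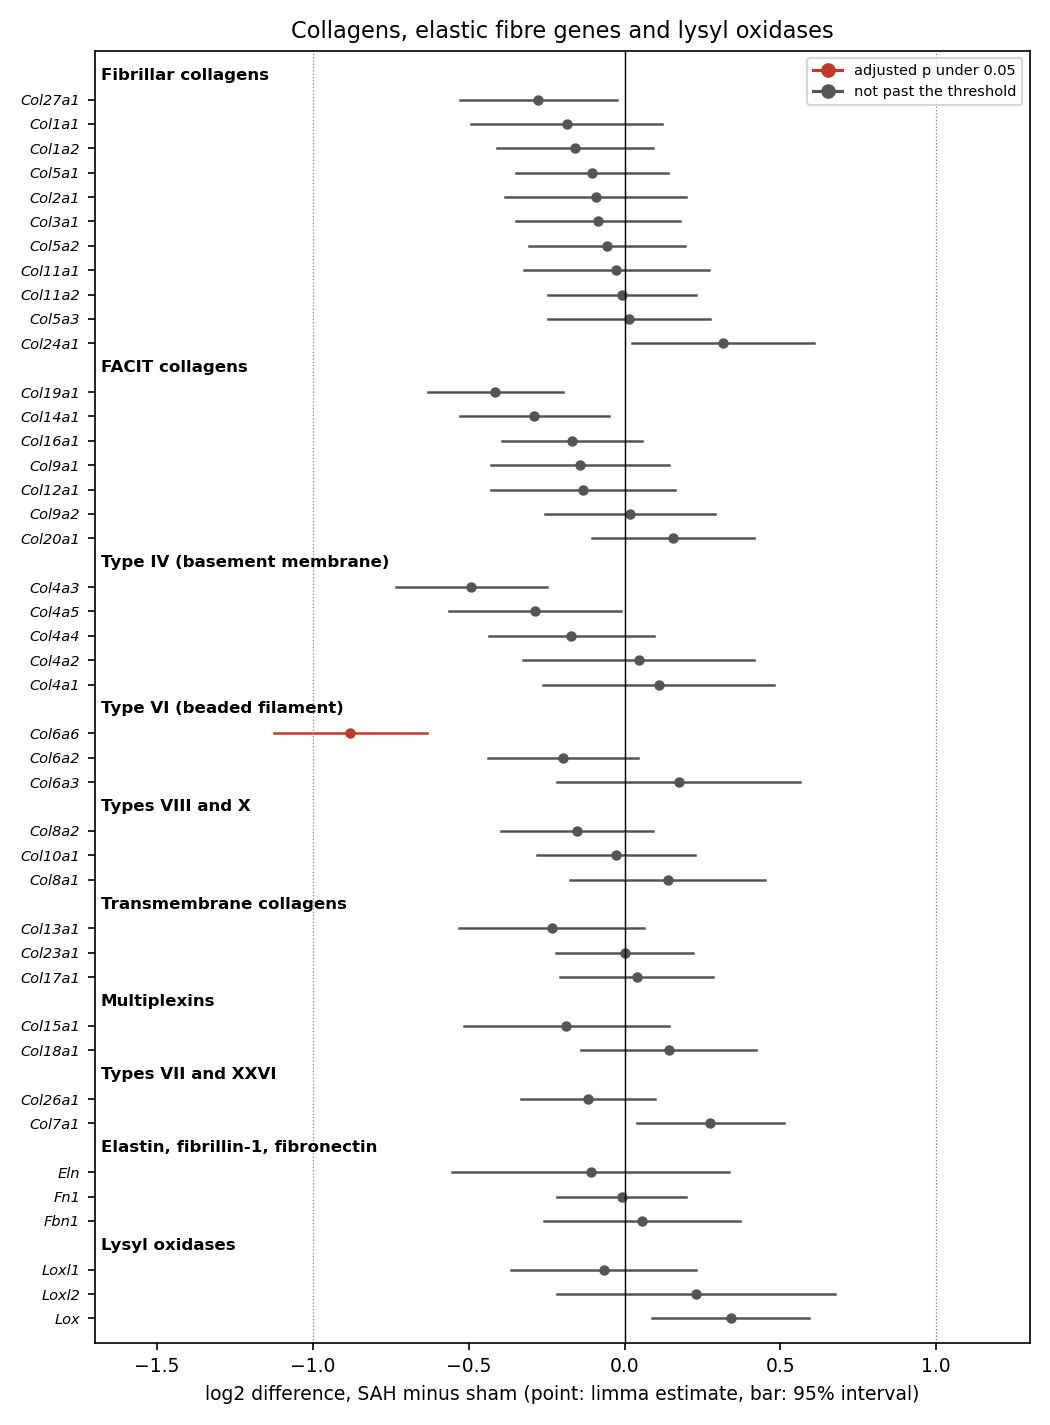
Log2 difference, SAH minus sham, on the horizontal axis for each of the 42 genes, grouped by class from top to bottom. Points are limma estimates and bars their 95% intervals over 3 SAH and 3 sham arrays. Dotted lines mark a 2-fold difference, and Col6a6 at -0.88, in red, is the gene past the threshold.

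Type VI collagen makes a fine network of beaded filaments close to cells. Its classical trimer holds the alpha 1, alpha 2 and alpha 3 chains, and the alpha 6 chain of Col6a6 resembles alpha 3 and is thought to take its place in some trimers. Col6a6 (probe set 17855315) read 6.79, 6.65 and 6.59 in SAH arrays 1, 4 and 5, against 7.58, 7.46 and 7.64 in sham arrays 6, 7 and 8. All 3 SAH values lay below all 3 sham values, with a gap wider than the SD within either group. The means were 6.68 ± 0.10 in SAH and 7.56 ± 0.09 in sham arteries (SD, n = 3 each), a 1.84-fold lower value in SAH (difference -0.88 ± 0.10 SE, 95% interval -1.12 to -0.63, limma adjusted p = 0.0214). Col6a6 stood above the array median on the 3 sham arrays and below it on the 3 SAH arrays, so the SAH values lay in the range where RMA compresses differences. The difference stayed between -0.93 and -0.84 with any 1 array left out. Col6a6 still passed without SAH array 1 (limma adjusted p = 0.0159). It did not pass when SAH array 4 was left out (0.109) or SAH array 5 (0.0913), nor when this was done with sham array 6 (0.138), 7 (0.0957) or 8 (0.0772).

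The other type VI chains measured did not pass the threshold. Col6a2, the alpha 2 chain (17754395), read 10.69, 10.77 and 10.72 in SAH arrays, against 10.82, 11.05 and 10.90 in sham arrays, and these groups did not overlap either (difference -0.20 ± 0.10 SE, limma adjusted p = 0.437). Col6a3, the alpha 3 chain (17866373), read 10.15, 10.64 and 10.11 in SAH arrays, against 10.11, 10.01 and 10.27 in sham arrays, with SAH array 4 above the other 5 (difference 0.17 ± 0.16 SE, adjusted p = 0.701). Taken within each array and centred on the sham mean, Col6a6 minus the mean of Col6a2 and Col6a3 was -0.67, -1.08 and -0.85 in SAH arrays 1, 4 and 5, against 0.08, -0.10 and 0.02 in sham arrays 6, 7 and 8. This contrast did not overlap between groups, but it holds the Col6a6 difference described above. It was chosen after the values were seen and is given without a test.

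The window around the start of the Col6a6 gene is shown because it belongs to the 1 gene called. It is the RefSeq sequence of GRCr8, chr8:115352112-115352411, minus strand, from 250 bases before to 50 bases after the start, 5′ to 3′. Capitals mark matches to 3 short promoter motifs that were searched on both strands, namely the CCAAT box, the GC box spelled GGGCGG and the TATA box spelled TATAAA. A match on the opposite strand appears as the reverse complement.
Col6a6: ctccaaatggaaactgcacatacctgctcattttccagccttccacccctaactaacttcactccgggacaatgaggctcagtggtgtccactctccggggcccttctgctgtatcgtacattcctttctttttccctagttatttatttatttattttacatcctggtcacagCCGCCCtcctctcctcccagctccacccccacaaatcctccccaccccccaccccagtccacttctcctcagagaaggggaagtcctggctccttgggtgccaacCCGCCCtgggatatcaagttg
The Col6a6 window held GGGCGG on the opposite strand at 2 places, -76 and 30 counted from the start site, and neither of the other motifs. GGGCGG was found in 33.1% of all 33469 promoter windows of the table, CCAAT in 37.5% and TATAAA in 14.2%. Windows were listed for 32 of the 42 genes, 34 windows in all because Col24a1 has 3. Of these, 19 (55.9%) held GGGCGG, 8 (23.5%) CCAAT and 4 (11.8%) TATAAA.

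**Figure D2:**
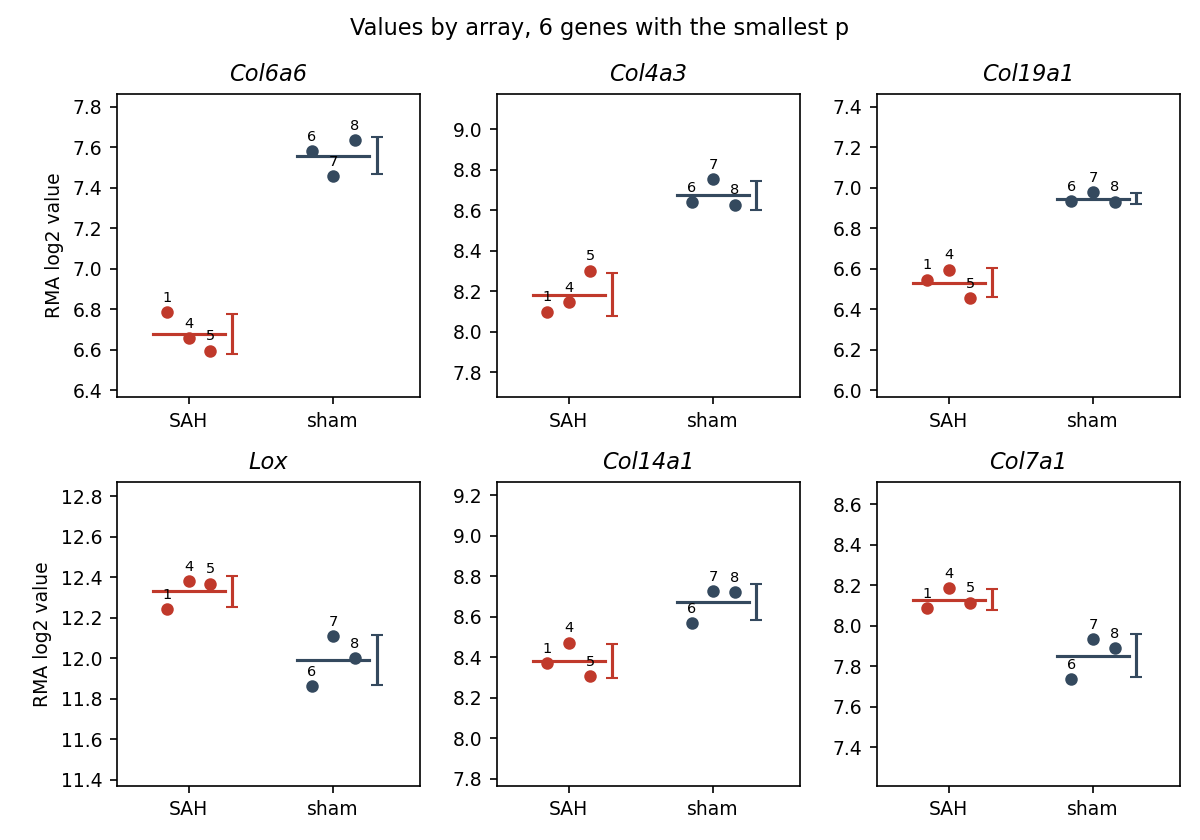
RMA log2 values on the vertical axes, which all span the same range, for the 6 genes with the smallest p, with the 3 SAH arrays left of the 3 sham arrays in each panel. Points are numbered by array, lines are means and brackets are ± 1 SD. SAH and sham values do not overlap in any of the 6 panels, which the choice by smallest p favours, and only Col6a6 passed the threshold. Over all 42 genes 12 (28.6%) did not overlap, against 26.8% of all named genes.

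Type IV collagen is built from distinct trimers. The alpha 1 and alpha 2 chains form the trimer found in basement membranes throughout the body, while alpha 3, alpha 4 and alpha 5 form a trimer best known from the kidney glomerulus. Of the 5 chains measured none passed the threshold, and the class median was -0.17, or -0.11 without SAH array 1 and -0.26 without SAH array 5. Col4a3, the alpha 3 chain (17860832), read 8.10, 8.14 and 8.30 in SAH arrays, against 8.64, 8.75 and 8.63 in sham arrays. The groups did not overlap, with a difference of -0.49 ± 0.10 SE and a limma adjusted p of 0.0999. It passed the threshold when probe sets above their array's median on fewer than 3 arrays were removed (0.0385) and in a fit with 1 row per gene (0.0373), both of which test fewer rows.

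Col4a5, the alpha 5 chain (17876663), read 8.78, 9.11 and 8.87 in SAH arrays, against 9.15, 9.27 and 9.19 in sham arrays (difference -0.29 ± 0.12 SE, limma adjusted p = 0.328). Col4a4, the alpha 4 chain (17865969), read 8.06, 8.13 and 8.36 in SAH arrays, against 8.37, 8.40 and 8.29 in sham arrays (difference -0.17 ± 0.11 SE, adjusted p = 0.560). Col4a5 did not overlap between groups, and Col4a4 did through SAH array 5 and sham array 8.

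Col4a1, the alpha 1 chain (17709399), read 10.25, 10.52 and 10.78 in SAH arrays, against 10.25, 10.51 and 10.45 in sham arrays. Col4a2, the alpha 2 chain (17713164), read 10.05, 10.45 and 10.60 in SAH arrays, against 10.27, 10.43 and 10.26 in sham arrays. Both chains were lowest in SAH array 1 among the SAH arrays and highest in SAH array 5, with differences of 0.11 ± 0.16 and 0.04 ± 0.16 SE (limma adjusted p = 0.813 and 0.935). Within arrays, the mean of the alpha 3, 4 and 5 chains minus that of alpha 1 and 2, centred on the sham mean, was -0.21, -0.40 and -0.56 in SAH arrays 1, 4 and 5, against 0.08, -0.04 and -0.03 in sham arrays 6, 7 and 8. These values did not overlap, but the contrast holds the Col4a3 and Col4a5 differences described above, which did not overlap either. This contrast too was chosen after the values were seen and is given without a test.

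**Figure D3:**
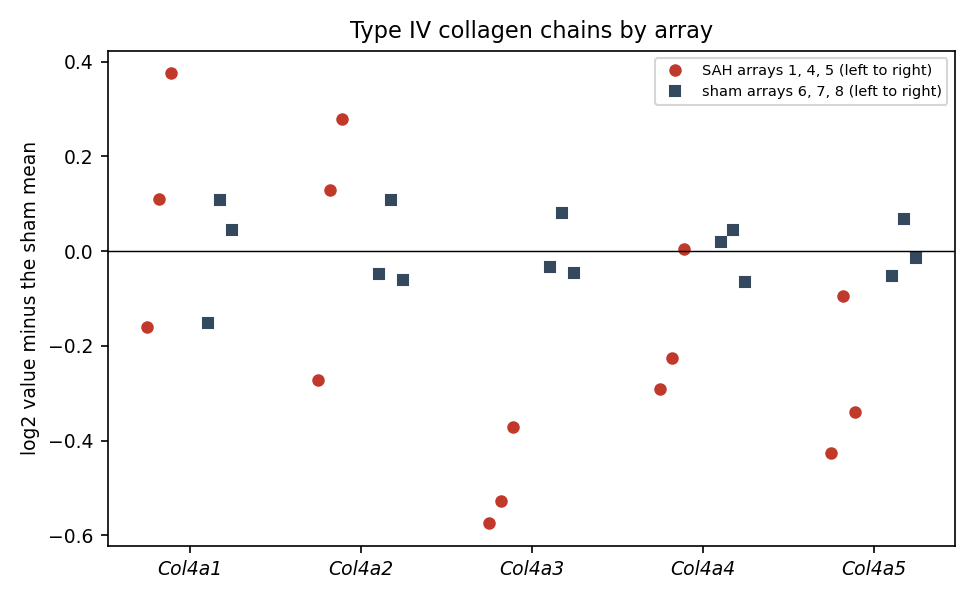
Log2 value minus the sham mean on the vertical axis for the 5 type IV collagen chains measured, with the SAH arrays (circles) left of the sham arrays (squares). Every SAH value of Col4a3 and Col4a5 lies below every sham value, while Col4a1 and Col4a2 spread from below to above the sham arrays.

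Type IV chain genes sit in pairs that face away from each other across a shared promoter. The windows of both pairs are shown because the chains within a pair could be compared in the same arrays. They are RefSeq sequences of GRCr8, 5′ to 3′ along each gene, with the same motifs in capitals: Col4a1 at chr16:84885347-84885646, plus strand, Col4a2 at chr16:84885471-84885770, minus strand, Col4a3 at chr9:91323740-91324039, plus strand, and Col4a4 at chr9:91323528-91323827, minus strand.
Col4a1: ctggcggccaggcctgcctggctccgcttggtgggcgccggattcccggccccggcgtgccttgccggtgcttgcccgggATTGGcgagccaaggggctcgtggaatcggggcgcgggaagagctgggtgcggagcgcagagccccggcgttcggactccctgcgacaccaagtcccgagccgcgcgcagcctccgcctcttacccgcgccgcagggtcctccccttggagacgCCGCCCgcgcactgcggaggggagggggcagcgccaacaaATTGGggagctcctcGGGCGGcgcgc
Col4a2: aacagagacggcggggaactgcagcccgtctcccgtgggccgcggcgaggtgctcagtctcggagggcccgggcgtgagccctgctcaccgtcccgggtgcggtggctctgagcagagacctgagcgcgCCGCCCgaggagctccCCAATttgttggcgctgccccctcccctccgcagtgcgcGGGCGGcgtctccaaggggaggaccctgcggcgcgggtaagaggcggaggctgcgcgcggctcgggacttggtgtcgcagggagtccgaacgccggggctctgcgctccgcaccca
Col4a3: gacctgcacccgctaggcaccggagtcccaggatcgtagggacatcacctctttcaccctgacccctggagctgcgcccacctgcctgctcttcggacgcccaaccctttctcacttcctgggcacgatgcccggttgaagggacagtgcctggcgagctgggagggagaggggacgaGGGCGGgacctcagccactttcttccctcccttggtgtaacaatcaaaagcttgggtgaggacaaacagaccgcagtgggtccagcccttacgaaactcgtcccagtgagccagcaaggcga
Col4a4: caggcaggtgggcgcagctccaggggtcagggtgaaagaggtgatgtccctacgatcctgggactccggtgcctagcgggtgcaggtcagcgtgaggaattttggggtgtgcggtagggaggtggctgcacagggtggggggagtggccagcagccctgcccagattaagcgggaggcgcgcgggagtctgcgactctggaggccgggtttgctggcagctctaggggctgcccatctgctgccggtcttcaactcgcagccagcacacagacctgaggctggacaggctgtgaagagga
The start sites of Col4a1 and Col4a2 lie 77 bases apart and their windows share 176 bases, including matches to CCAAT and GGGCGG. The start sites of Col4a3 and Col4a4 lie 413 bases apart, with 88 bases shared. GGGCGG was found in the Col4a3 window, and none of the 3 motifs in that of Col4a4. Col4a1 minus Col4a2 within arrays, centred on the sham mean, was 0.11, -0.02 and 0.10 in SAH arrays 1, 4 and 5, against -0.10, 0.00 and 0.11 in sham arrays 6, 7 and 8. Col4a3 minus Col4a4 was -0.28, -0.30 and -0.38 in these SAH arrays, against -0.05, 0.04 and 0.02 in the sham arrays. The first pair overlapped between groups and the second did not. Both contrasts were chosen after the values were seen and are given without a test, and the second holds the Col4a3 difference described above.

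None of the 11 fibrillar collagens passed the threshold, and their median difference was -0.09, with 9 differences below 0. Type I collagen, the main fibril of the arterial adventitia, is a trimer of Col1a1 and Col1a2 chains. Col1a1 (17650326) read 11.77, 11.91 and 11.64 in SAH arrays, against 11.94, 12.15 and 11.79 in sham arrays (difference -0.19 ± 0.13 SE, limma adjusted p = 0.585). Col1a2 (17781395) read 11.35, 11.52 and 11.30 in SAH arrays, against 11.60, 11.59 and 11.45 in sham arrays (difference -0.16 ± 0.11 SE, adjusted p = 0.564). The groups overlapped for both chains, and Col1a1 minus Col1a2 within arrays, centred on the sham mean, stayed between -0.07 and 0.01 in SAH arrays and between -0.08 and 0.14 in sham arrays. Col3a1, the single chain of type III collagen that runs with type I in vessel walls (17858944), read 11.09, 11.34 and 11.12 in SAH arrays, against 11.23, 11.37 and 11.20 in sham arrays (difference -0.09 ± 0.11 SE, adjusted p = 0.791). The 95% intervals of Col1a1, Col1a2 and Col3a1 reached down to -0.49, -0.41 and -0.35 and up to 0.12, 0.09 and 0.18.

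Of the 11 fibrillar collagens, 1 was lower and 1 higher without overlap between groups, where 26.8% of all named genes did not overlap. Col27a1, a chain best known from cartilage (17799278), read 8.88, 8.83 and 8.65 in SAH arrays, against 9.09, 8.97 and 9.13 in sham arrays (difference -0.28 ± 0.11 SE, limma adjusted p = 0.300). Col24a1, a chain known from developing bone and cornea (17743278), read 7.10, 7.36 and 7.36 in SAH arrays, against 7.09, 6.82 and 6.97 in sham arrays (difference 0.32 ± 0.12 SE, adjusted p = 0.309). Col27a1 was lower and Col24a1 higher in SAH arteries, and SAH array 1 reached nearly to the highest sham array for Col24a1, which was above its array's median on only 1 of the 6 arrays. The other fibrillar chains (Col2a1, Col5a1, Col5a2, Col5a3, Col11a1 and Col11a2) had differences from -0.10 to 0.01 and overlapped between groups. Col5a1, which with Col5a2 sets fibril diameter, was the only gene with a further probe set, and its probe sets gave -0.10 ± 0.10 and 0.02 ± 0.11 SE.

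FACIT collagens have short helical stretches that attach to fibrils and space them. Of 7 measured none passed, and the class median was -0.14, with 5 differences below 0. Col19a1, known from developing muscle and from neurons (17863501), read 6.55, 6.60 and 6.46 in SAH arrays, against 6.93, 6.98 and 6.93 in sham arrays (difference -0.42 ± 0.09 SE, limma adjusted p = 0.115). These groups did not overlap, all 6 values lay below the array medians, and the gene passed in the fit with 1 row per gene (adjusted p = 0.0428).

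Col14a1, a fibril-associated collagen of fibroblasts (17829421), read 8.37, 8.47 and 8.31 in SAH arrays, against 8.57, 8.73 and 8.72 in sham arrays (difference -0.29 ± 0.10 SE, limma adjusted p = 0.259). Col16a1 (17802515) read 7.69, 7.77 and 7.60 in SAH arrays, against 7.90, 7.83 and 7.84 in sham arrays (difference -0.17 ± 0.09 SE, adjusted p = 0.481). Col12a1, a close relative of Col14a1 (17854185), read 10.22, 10.23 and 10.20 in SAH arrays, against 10.16, 10.32 and 10.57 in sham arrays (difference -0.13 ± 0.12 SE, adjusted p = 0.693). Col14a1 and Col16a1 were lower in every SAH array than in any sham array, whereas for Col12a1 sham array 6 lay below the SAH arrays. Col9a1, Col9a2 and Col20a1 overlapped between groups, with differences of -0.14, 0.02 and 0.16.

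The remaining collagens build networks, anchor epithelia or sit in membranes, and none of these 10 passed. Col7a1, the anchoring fibril collagen of skin (17847885), read 8.09, 8.19 and 8.11 in SAH arrays, against 7.74, 7.93 and 7.89 in sham arrays, with no overlap (difference 0.28 ± 0.10 SE, limma adjusted p = 0.273). Col8a1, a short-chain collagen made by vascular cells (17665187), read 11.04, 11.04 and 11.27 in SAH arrays, against 10.84, 11.19 and 10.90 in sham arrays (difference 0.14 ± 0.13 SE, adjusted p = 0.701). Col8a1 overlapped through sham array 7, and its partner chain Col8a2 differed by -0.15 ± 0.10 SE. Col13a1, a transmembrane collagen of adhesion sites (17758510), read 8.20, 8.13 and 7.97 in SAH arrays, against 8.51, 8.33 and 8.16 in sham arrays (difference -0.23 ± 0.13 SE, adjusted p = 0.463). Col23a1, another transmembrane collagen (17645604), read 8.95, 8.96 and 9.01 in SAH arrays, against 9.05, 8.91 and 8.95 in sham arrays, and both group means were 8.97.

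Col18a1 and Col15a1, the multiplexins of vascular basement membranes whose cleaved ends include endostatin, did not pass. Col18a1 (17754308) read 10.63, 10.69 and 10.91 in SAH arrays, against 10.62, 10.72 and 10.48 in sham arrays (difference 0.14 ± 0.12 SE, limma adjusted p = 0.658). Col15a1 (17798663) read 8.89, 9.18 and 9.37 in SAH arrays, against 9.37, 9.37 and 9.26 in sham arrays (difference -0.19 ± 0.14 SE, adjusted p = 0.612). SAH array 1 was the lowest SAH array and SAH array 5 the highest for both, in the order also seen for Col4a1 and Col4a2. Col26a1 differed by -0.12 without overlap, and Col10a1 and Col17a1 by -0.03 and 0.04 with overlap.

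Genes of the elastic lamina and of fibronectin did not pass, with a class median of -0.01 over 3 genes. Elastin (Eln, 17673043) read 10.50, 11.07 and 10.90 in SAH arrays, against 10.80, 11.21 and 10.78 in sham arrays (difference -0.11 ± 0.19 SE, 95% interval -0.55 to 0.34, limma adjusted p = 0.849). Fibrillin-1 (Fbn1, 17776634), the microfibril on which elastin is laid down, read 10.98, 10.78 and 10.70 in SAH arrays, against 10.57, 10.94 and 10.79 in sham arrays (difference 0.06 ± 0.13 SE, adjusted p = 0.898). Elastin and fibrillin-1 overlapped widely, with elastin lowest in SAH array 1 and fibrillin-1 lowest in sham array 6. Fibronectin (Fn1, 17865301) read 13.01, 13.00 and 12.93 in SAH arrays, against 13.00, 12.99 and 12.98 in sham arrays (difference -0.01 ± 0.09 SE, 95% interval -0.22 to 0.20, limma adjusted p = 0.978). All 6 arrays lay between 12.93 and 13.01, near the upper end of the scale, where array values may understate differences.

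Lysyl oxidases start the cross-linking of collagen and elastin by oxidising lysines. Lox, the main family member of the arterial wall (17726248), read 12.24, 12.38 and 12.37 in SAH arrays, against 11.86, 12.11 and 11.999 in sham arrays. The groups did not overlap, and the difference of 0.34 ± 0.11 SE (1.27-fold, 95% interval 0.09 to 0.59) did not pass (limma adjusted p = 0.219). Loxl2, which also acts on type IV collagen (17699849), read 9.28, 9.91 and 9.67 in SAH arrays, against 9.14, 9.48 and 9.55 in sham arrays (difference 0.23 ± 0.19 SE, adjusted p = 0.650). The Loxl2 difference was 0.086 without SAH array 4, 0.10 without sham array 6 and 0.40 without SAH array 1. Loxl1, needed for elastic fibres in mice (17853072), read 11.82, 11.62 and 11.45 in SAH arrays, against 11.70, 11.78 and 11.60 in sham arrays (difference -0.07 ± 0.12 SE, adjusted p = 0.862). Loxl2 overlapped through SAH array 1 and Loxl1 spread across the sham values, so of these 3 oxidases Lox alone was higher in every SAH array than in any sham array. Loxl3 and Loxl4, outside the genes chosen by name and in the collagen-processing list below, were also higher without overlap. Their differences were 0.64 ± 0.21 and 0.33 ± 0.10 SE, and neither passed (limma adjusted p = 0.230 and 0.209). Of the 25 genes measured in the collagen-processing list, 3 were higher and 9 lower without overlap. Among all named genes 11.4% were higher and 15.4% lower without overlap.

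**Figure D4:**
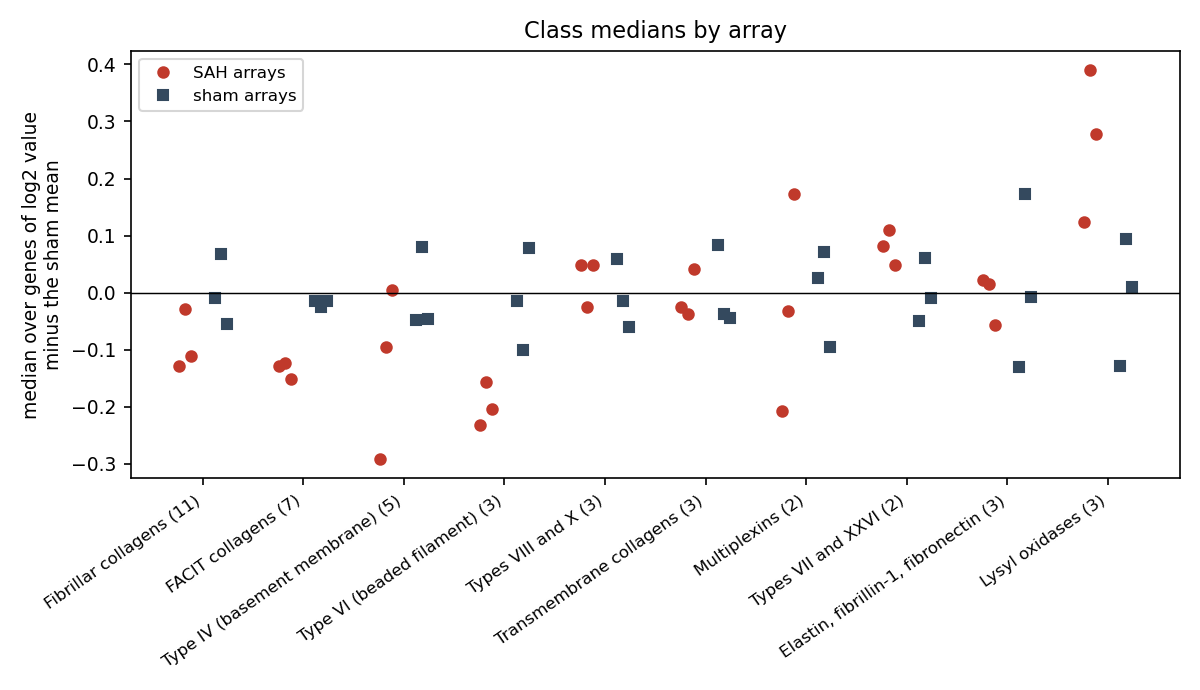
Median over the genes of each class of the log2 value minus the sham mean, on the vertical axis, for each array, with SAH arrays (circles, in the order 1, 4, 5) left of sham arrays (squares, in the order 6, 7, 8) and the number of genes in brackets. The SAH medians of the FACIT collagens lie at -0.13, -0.12 and -0.15 and those of the lysyl oxidases at 0.12, 0.39 and 0.28, while the SAH and sham medians of elastin, fibrillin-1 and fibronectin overlap.

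By class and array, the fibrillar medians were -0.13, -0.03 and -0.11 in SAH arrays 1, 4 and 5, against -0.01, 0.07 and -0.05 in sham arrays 6, 7 and 8. The type IV medians were -0.29, -0.09 and 0.005 in the SAH arrays, against -0.05, 0.08 and -0.05 in the sham arrays. Over all 42 genes the medians were -0.13, -0.03 and -0.07 in the SAH arrays, against -0.01, 0.05 and -0.03 in the sham arrays. Only the FACIT and type VI medians lay lower, and only the lysyl oxidase median higher, in every SAH array than in every sham array. Among these classes only FACIT holds more than 3 genes. Each holds genes that differed the other way (Col9a2 and Col20a1 in FACIT, Col6a3 in type VI and Loxl1 among the oxidases). Taken gene by gene, 26.8% of all named genes did not overlap between groups (15.4% lower, 11.4% higher).

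Genes that process collagen after translation were taken from a list of 29, of which 25 were measured. Of these 25, 1 rose, none fell and 24 did not pass, with a median of -0.12 and 19 differences below 0. Among all named genes 0.963% rose and 0.330% fell by the same test, and 52.7% of differences were below 0. P4ha3, an alpha subunit of the prolyl 4-hydroxylase that stabilises the triple helix, read 8.30, 8.38 and 8.62 in SAH arrays, against 7.66, 7.74 and 7.71 in sham arrays. The groups did not overlap, with means of 8.43 ± 0.17 in SAH and 7.70 ± 0.04 in sham arteries (SD, n = 3 each), a 1.66-fold rise (difference 0.73 ± 0.11 SE, limma adjusted p = 0.0496). The call of P4ha3 ended without any 1 array other than SAH array 1, with adjusted p from 0.128 to 0.240. The sister subunits P4ha1 and P4ha2 differed by -0.06 ± 0.12 and -0.03 ± 0.19 SE, and P4hb, the shared beta subunit, by -0.08 ± 0.10. P3h2, a prolyl 3-hydroxylase that acts on type IV collagen, differed by -0.74 ± 0.21 SE and Serpinh1, the collagen chaperone HSP47, by -0.35 ± 0.10, with adjusted p of 0.180 and 0.195.

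No gene of the other 4 lists of the pathway passed. Of 13 elastic fibre partners measured, Mfap2, a microfibril glycoprotein gene, differed by -0.39 ± 0.11 SE, Ltbp3, which binds latent TGF-beta, by -0.42 ± 0.12 and Emilin2 by 0.51 ± 0.21 (limma adjusted p = 0.173, 0.181 and 0.340). Of 13 matrix partners, the collagen-binding leucine-rich proteoglycans Aspn, Prelp and Fmod differed by -0.55 ± 0.11, -0.29 ± 0.11 and -0.43 ± 0.20 SE (adjusted p = 0.0931, 0.292 and 0.394). The median differences of these lists were -0.14 and -0.11, and 19 of their 26 differences were below 0, against 52.7% of all named genes.

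Among 10 collagen and fibronectin receptors measured the values ran in both directions. Itga2, the alpha 2 subunit of a collagen-binding integrin also found on platelets, read 8.02, 8.51 and 9.27 in SAH arrays, against 6.94, 6.82 and 7.34 in sham arrays (difference 1.57 ± 0.31 SE, limma adjusted p = 0.0918). Ddr2, a receptor kinase for fibrillar collagen, read 12.13, 12.22 and 12.13 in SAH arrays, against 11.71, 11.55 and 11.74 in sham arrays (difference 0.50 ± 0.10 SE, adjusted p = 0.0917). Itga11, a collagen-binding integrin subunit of fibroblasts, read 8.97, 8.78 and 8.14 in SAH arrays, against 9.51, 9.41 and 9.54 in sham arrays (difference -0.86 ± 0.21 SE, adjusted p = 0.141). None of these 3 overlapped between groups, which their choice by smallest p favours. Of the 10 receptors, 2 were higher and 2 lower without overlap, against 11.4% and 15.4% of all named genes. In the TGF-beta pathway, a main inducer of collagen genes, none of 11 passed, with Smad7 at 0.47 ± 0.15, Tgfbr3 at -0.67 ± 0.26 and Tgfb2 at 0.26 ± 0.11 SE (adjusted p = 0.236, 0.304 and 0.346).

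Marker lists of the cell types in such a sample are given beside these values, and their part in the collagen values was not tested. In bulk arteries, fewer cells of a type and less RNA per cell cannot be told apart. Of 10 fibroblast markers none passed, and all 10 differences were below 0, against 52.7% of all named genes. The mean log2 value over the list ran from 10.97 to 11.15 in SAH arrays, against 11.35 to 11.39 in sham arrays. The median difference over the fibroblast list was -0.13, with Slc6a13 at -1.20 ± 0.45 and Cd34 at -0.81 ± 0.16 SE, while Dcn, Pi16, Dpt, Ptgds and Mfap5 lay between -0.09 and -0.01. SAH array 5 had the lowest list mean of the 6 arrays, and there Slc6a13, a transporter of leptomeningeal cells, read 10.06, against 11.51 or more in the other 5 arrays. Of 6 smooth muscle markers measured Smtn (smoothelin) fell (difference -1.18 ± 0.13 SE, limma adjusted p = 0.0197), all 6 were lower without overlap (15.4% of all named genes were), and the list's mean ran from 11.76 to 11.84 in SAH arrays, against 12.10 to 12.28 in sham arrays. None of 10 neutrophil markers passed, with a list mean from 8.24 to 9.35 in SAH arrays, against 6.83 to 8.88 in sham arrays, sham array 8 being the highest sham array. None passed of 8 macrophage markers (8.86 to 9.41 in SAH arrays, against 9.36 to 9.93 in sham arrays), of 6 endothelial markers (10.25 to 10.46, against 10.35 to 10.62) or of 7 brain tissue markers (7.68 to 8.25, against 7.94 to 8.37). Endothelial differences ran in both directions, 4 below 0 and 2 above. Cldn5 and Tek differed by -0.76 ± 0.24 and -0.50 ± 0.15 SE, and Cdh5 and Flt1 by 0.61 ± 0.11 and 0.10 ± 0.13 SE. Log2 array values have no zero, so absence of a cell type cannot be read from them, and the smooth muscle and fibroblast markers all stood above the array medians on all 6 arrays.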

How the data were processed

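RNA of rat cerebral arteries was measured on 6 Affymetrix arrays, 3 SAH and 3 sham. The deposited log2 values were made by the authors with Affymetrix Expression Console 1.1.2 and RMA, per the submitters' processing notes. Settings of these steps and a genome build were not given in the sources used here. Array medians lay between 7.31 and 7.37, and arrays correlated with r from 0.970 to 0.991 across probe sets. The number of arrays limits the precision.

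From 36685 probe sets, 190 controls were left out and 36495 were tested with limma 3.58.1 in R 4.3.3 (lmFit, eBayes, two-sided, no covariate). Symbols were updated through Entrez IDs to the RefSeq GRCr8 table. 18511 probe sets named 1 gene, 575 several and 17409 none. Sequences are RefSeq windows matched by symbol, and array probes were not mapped to that build. The test was checked on simulated data with 3 arrays per group. There it called 2.8% of log2 changes of 0.5 and 72.4% of log2 changes of 1. The genes, classes and lists were chosen with earlier results of these data known. Values by array are given for genes called, the 12 with the smallest p and up to 2 per class with the highest mean. Of each pathway list, called genes and the 3 with the smallest p are named. Other genes named (among them Eln, Fbn1, Loxl1, Loxl2, Loxl3, Loxl4, Col3a1, Col4a4, Col6a3, Col15a1, P4ha1, P4ha2, P4hb, Slc6a13, Cd34, Dcn, Pi16, Dpt, Ptgds and Mfap5) were chosen after their values were seen. Alternatives covered a filter on dim probe sets, normalization, the variance model, array weights, the threshold, each array left out, gene representation and symbols.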

Additional observations from a re-analysis of the deposited data

How the results depend on the processing

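Col6a6 kept its direction under every alternative run, with differences from -0.93 to -0.84 when 1 array was left out and from -0.90 to -0.87 otherwise. The number of genes called lower among the 42 was 2 with the filter on dim probe sets (those over their array's median on under 3 arrays removed, a filter that Col6a6 passed only through the sham arrays where it is higher), 3 with 1 row per gene, 2 at an adjusted p under 0.10, and 0 to 1 when 1 array was left out, and none was called higher in any of these fits. The probe sets called over the whole table numbered 295, against 853 with the filter, 458 with eBayes trend and robust options, 479 with array weights, 716 at 0.10, and 41 to 929 with 1 array left out. Pathway genes called higher numbered 1, against 3 with the filter, 2 with trend and robust options, 2 with array weights, 3 at 0.10 and 0 to 3 with 1 array left out. Those called lower numbered 0, against 1 with the filter, with trend and robust options and at 0.10, and 0 to 1 with 1 array left out.

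The FACIT median was -0.16 with quantile normalization repeated and -0.17 with array weights, and with the filter the type VII and XXVI median was 0.28 (1 gene left) and the transmembrane median -0.12 (2 genes left). With 1 array left out, the median ran from -0.10 to -0.031 over all 42 genes, -0.18 to -0.13 for FACIT, -0.26 to -0.11 for type IV, -0.25 to -0.13 for type VI, 0.086 to 0.38 for lysyl oxidases, -0.065 to 0.048 for types VIII and X, and -0.13 to -0.03 for fibrillar collagens. Genes near 0 changed sign in such fits, none of them called: Col4a1 (-0.024 to 0.24), Col4a2 (-0.072 to 0.20), Eln (-0.23 to 0.053), Fbn1 (-0.041 to 0.14), Fn1 (-0.025 to 0.015), Loxl1 (-0.16 to 0.023), Col5a3 (-0.064 to 0.085), Col9a2 (-0.028 to 0.10), Col10a1 (-0.065 to 0.048), Col11a1 (-0.13 to 0.030), Col11a2 (-0.058 to 0.045), Col17a1 (-0.026 to 0.081) and Col23a1 (-0.028 to 0.040). Col23a1 also changed sign with quantile normalization repeated (0.022) and with array weights (0.002). The cause of these changes was not tested. The filter and the fit with 1 row per gene test fewer rows, and the part of this in their calls was not tested. No paired analysis was possible because the groups share no array numbers.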

Other observations

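A triple helix also occurs outside the collagens, in defence and signalling proteins with a collagen-like domain. A list of 27 such genes was made after the data were seen, and 26 were measured. None passed the limma threshold (adjusted p under 0.05), and the median difference was -0.04, with 8 genes at an unadjusted p under 0.05, 3 higher and 5 lower, where over all named genes 18.6% reached this p (8.16% higher, 10.5% lower). C1qtnf1, a secreted relative of adiponectin, read 11.06, 12.06 and 12.18 in SAH arrays 1, 4 and 5, against 9.97, 10.07 and 10.22 in sham arrays 6, 7 and 8 (difference 1.68 ± 0.29 SE, limma adjusted p = 0.0640). Gldn, which encodes gliomedin of the node of Ranvier, read 8.25, 8.75 and 8.95 in SAH arrays, against 7.38, 7.63 and 7.59 in sham arrays (difference 1.11 ± 0.19 SE, adjusted p = 0.0628). Neither gene overlapped between groups, and both had the smallest p of the list. Of the 26 genes, 2 were higher and 5 lower without overlap, against 11.4% and 15.4% of all named genes. The complement genes C1qa, C1qb and C1qc differed by -0.48 ± 0.14, -0.67 ± 0.23 and -0.53 ± 0.19 SE. C1qa and C1qb are also in the macrophage marker list, where Csf1r differed by -0.50 ± 0.11, Mrc1 by -1.24 ± 0.39 and Cd163 by -1.29 ± 0.44, and Cd68 and Aif1 by 0.37 ± 0.18 and 0.21 ± 0.11 SE. The part of these markers in the C1q values was not tested. Fcnb, a ficolin of neutrophils, read 10.14, 10.29 and 10.95 in SAH arrays, against 7.51, 8.11 and 10.35 in sham arrays.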
